A study of Caenorhabditis elegans with 3 samples.

Results

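Genes of the nuclear pore complex and of nuclear transport were examined in the nematode Caenorhabditis elegans, in hermaphrodites late in the third larval stage (late L3). They were chosen by name, as probes given to exactly 1 gene whose symbol is npp, imb, ima, ran or xpo followed by a number, and the rule itself uses no measured value, although these name classes were picked with earlier results of these data known. The rule found 33 genes on 34 probes, of 15182 genes with such a probe, and 32 of the 33 had a value on all 3 arrays. Another 8 genes of these name classes (imb-1, imb-3, npp-8, npp-13, npp-20, npp-22, npp-25 and xpo-2) had no 1-gene probe and were not analysed here.

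RNA of 3 preparations (preps) of the larvae, labelled TP02, was hybridised on 2-colour arrays against 1 common wild-type mixed reference. The labels give neither the strain of the larvae nor the stages pooled in the reference. They do not say whether the preps came from separate cultures, so the p-values reflect no more than the spread among 3 samples, and this spread may be technical. Each prep had its own array and its own date in the array title.

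Nuclear pores are the channels through the nuclear envelope, built from many copies of proteins called nucleoporins. Scaffold nucleoporins form an outer and an inner ring, and nucleoporins with phenylalanine-glycine (FG) repeats fill the channel. Cargo crosses with importins and exportins, which read the direction of travel from the GTPase Ran, kept in its GTP form in the nucleus and hydrolysed in the cytoplasm. In germ cells of this worm, P granules, which are ribonucleoprotein condensates, sit over the pores on the cytoplasmic face. All values below are log2 ratios on arrays centred on their median, so a value of 1 is 2-fold. The direction used, late L3 over reference, is the likely one, because the larvae come first in each sample description. The labels put the reference on channel 1 and the larvae on channel 2 and name no dyes, so the direction is not settled by them.

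The comparison asked which of these transcripts differed between late L3 larvae and the mixed reference. Most did not pass the test. By limma, 4 of the 32 genes were higher (12.5%), 1 gene was lower (3.12%) and the other 27 missed the threshold, an adjusted p of 0.05 (Benjamini-Hochberg over all genes tested). Among the 15143 genes tested, 11.4% were higher and 11.9% lower. The share of higher members was therefore near the background. The share of lower members was below the background, but it rests on 1 gene, and the difference was not tested. The higher genes were all nucleoporin genes: npp-10, npp-3, npp-9 and npp-11. The lower gene was the importin alpha gene ima-1. The members' median log2 ratio was 0.13, against -0.0023 over all genes tested. At an unadjusted p under 0.05, 8 members (25.0%) lay on the higher side and 3 (9.38%) on the lower, against 17.6% and 17.9% of all genes tested.

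**Figure D1:**
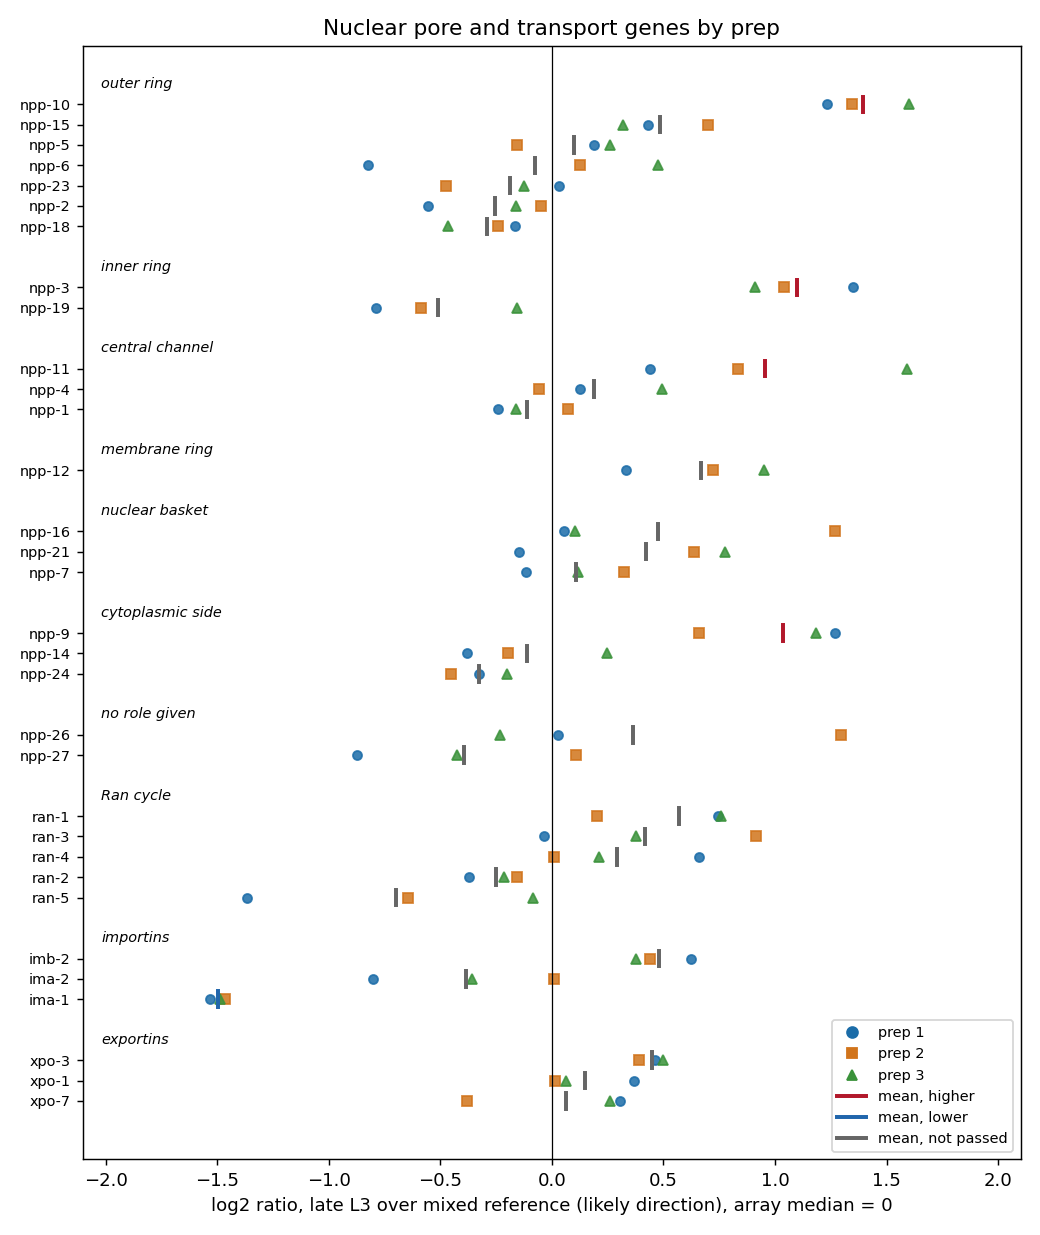
Log2 ratio, late L3 over mixed reference with the array median at 0 (horizontal axis), of the 32 genes with values on all 3 arrays, grouped by role. Symbols are the 3 preps, and the vertical bar is the mean, red where higher and blue where lower by the test. The 5 genes that passed had 1 sign in all preps, and their means lay between -1.49 and 1.39.

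The outer ring, or Y complex, is the scaffold on both faces of the pore. Its gene npp-10 (ZK328.5, chromosome III) encodes a precursor that is cut into the counterparts of vertebrate NUP98 and NUP96, an FG nucleoporin and a Y complex subunit. In preps 1, 2 and 3 npp-10 was at 1.23, 1.35 and 1.60, so all preps were high and lay close together. Its mean was 1.39 ± 0.19 (SD, n = 3), or 2.63-fold with a 95% interval of 1.90 to 3.64, and the limma adjusted p was 0.00112. Only 541 of the 15143 genes had a larger mean. The other 6 measured outer ring genes did not pass, and their means ran from -0.29 to 0.48. The gene npp-15, for the counterpart of NUP133, was at 0.48 ± 0.20 and above 0 in every prep. The genes npp-18 and npp-2, for counterparts of SEH1 and NUP85, were at -0.29 ± 0.16 and -0.25 ± 0.27 and below 0 in every prep. The gene npp-23, for the counterpart of NUP43, was at -0.19 ± 0.26. The gene npp-5, for the counterpart of NUP107, was at 0.10 ± 0.22. The counterpart of NUP160, npp-6, was at -0.83, 0.13 and 0.47 in preps 1, 2 and 3. Its preps lay on both sides of the array median, and its SD of 0.67 was the third largest among the members.

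The inner ring holds the channel in the plane of the envelope. Its 2 measured genes lay on opposite sides of the median. The gene npp-3 (K12D12.2, chromosome II), for the large scaffold nucleoporin NUP205, was at 1.35, 1.04 and 0.91 in preps 1, 2 and 3. All preps were high, with a mean of 1.10 ± 0.23, a fold of 2.14 (95% interval 1.54 to 2.98) and a limma adjusted p of 0.00463. The gene npp-19, for the counterpart of NUP35, was at -0.79, -0.59 and -0.16. All its preps were below the median, but the mean of -0.51 ± 0.32 did not pass (limma adjusted p = 0.128).

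Of the 3 genes of the central FG channel, npp-11 (F53F10.5, chromosome I), for the counterpart of NUP62, was higher. It was at 0.44, 0.83 and 1.59 in preps 1, 2 and 3, all above the median but spread over more than 1 log2 unit. The mean was 0.96 ± 0.58, or 1.94-fold (95% interval 1.31 to 2.87), with a limma adjusted p of 0.0222. The call was lost without prep 3, where the mean fell to 0.64 (limma adjusted p = 0.174). It was also lost without prep 2 (limma adjusted p = 0.0951), although the mean there was 1.02. Without prep 2, fewer of all genes passed, 761 higher and 1002 lower, against 1720 and 1804 with all preps. Over 13 alternatives the limma adjusted p of npp-11 ran from 0.000955 to 0.174, and 9 of them kept the call. The partners of NUP62 in the channel were near the median, npp-1 (NUP54) at -0.11 ± 0.16 and npp-4 (NUP58) at 0.19 ± 0.28.

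In the membrane ring, which anchors the pore in the envelope, npp-12 for the counterpart of gp210 was the only gene measured. It was at 0.33, 0.72 and 0.95 in preps 1, 2 and 3, above the median in each. Its mean of 0.67 ± 0.31 just missed the threshold (limma adjusted p = 0.0531), and it passed in 5 of 13 alternatives, with adjusted p-values from 0.0204 to 0.275 over them.

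On the cytoplasmic side, npp-9 (F59A2.1, chromosome III), for the counterpart of the Ran-binding filament protein NUP358, was higher. It was at 1.27, 0.66 and 1.18 in preps 1, 2 and 3, with prep 2 the lowest but still above the median. The mean was 1.04 ± 0.33, or 2.05-fold (95% interval 1.46 to 2.89), and the limma adjusted p was 0.00780. The genes npp-14 and npp-24, for the counterparts of NUP214 and NUP88, which act in mRNA export, did not pass at -0.11 ± 0.32 and -0.33 ± 0.13.

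None of the 3 nuclear basket genes, which extend into the nucleoplasm, passed, although their means were all above 0. The gene npp-16, for the counterpart of NUP50, had 2 probes, which differed by at most 0.50 on any array. It was at 0.05, 1.27 and 0.10 in preps 1, 2 and 3, high in prep 2 only. The gene npp-21, for the counterpart of the basket filament TPR, was at -0.15, 0.64 and 0.77, low in prep 1 only, and npp-7 (NUP153) was at 0.11 ± 0.22. Of 2 members whose role is not given here, npp-26 was at 0.03, 1.29 and -0.23, high in prep 2 only, and had the largest SD of all members, 0.82. The other, npp-27, was at -0.40 ± 0.49.

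Grouped after their values were seen, 8 nucleoporin genes have vertebrate counterparts with FG repeats (npp-1, npp-4, npp-7, npp-9, npp-10, npp-11, npp-14 and npp-16). Their median was 0.33, and 3 of them (37.5%) were higher while 5 did not pass, with 11.4% of all genes tested higher. The other 13 nucleoporin genes had a median of -0.07, with 1 higher and 12 not past the threshold. As the grouping followed the values, the split was not tested and nothing is read from it.

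The 5 genes of the Ran cycle did not pass. The GTPase gene ran-1 was at 0.74, 0.20 and 0.76 in preps 1, 2 and 3, above the median in each, with a mean of 0.57 ± 0.32 (limma adjusted p = 0.0927). Its exchange factor gene ran-3 (RCC1) was at 0.42 ± 0.48 and its activating protein gene ran-2 (RanGAP) at -0.25 ± 0.11. The importer of Ran, ran-4 (NTF2), was at 0.29 ± 0.33. The Ran-binding protein gene ran-5 (RANBP3) was at -1.37, -0.65 and -0.09, below the median in every prep but spread widely. Its mean of -0.70 ± 0.64 did not pass (limma adjusted p = 0.0843). Without prep 3 the mean of ran-5 was -1.01 and passed (limma adjusted p = 0.0301), and over the 13 alternatives its adjusted p ran from 0.0301 to 0.477.

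Importin alpha proteins bind the classical nuclear localisation signal. In this worm ima-1 and ima-2 are known as germ line genes, while ima-3 is used in soma and germ line. The gene ima-1 (T19B10.7, chromosome V) was at -1.53, -1.46 and -1.49 in preps 1, 2 and 3, low in each and nearly the same. Its mean was -1.49 ± 0.035 (95% interval of the mean -1.95 to -1.04), or 2.82-fold lower, with a limma adjusted p of 0.000624. Its SD was the smallest of all members, and only 514 genes had a smaller mean. The gene ima-2 was at -0.80, 0.01 and -0.36, with a mean of -0.38 ± 0.41 (limma adjusted p = 0.265). The gene ima-3 had no value in prep 1, and its values of -1.94 in prep 2 and 2.13 in prep 3 lay on opposite sides of the median, so it was left out of the test and its level is not settled by these arrays. The transportin gene imb-2, an importin beta type receptor, was at 0.62, 0.44 and 0.38, above the median in every prep, with a mean of 0.48 ± 0.13 that did not pass (limma adjusted p = 0.127).

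The 3 measured exportin genes did not pass. The tRNA exportin gene xpo-3 was at 0.46, 0.39 and 0.50 in preps 1, 2 and 3, so its preps were above the median and close together, but its mean of 0.45 ± 0.056 gave a limma adjusted p of 0.147. The main exportin of proteins, xpo-1 (CRM1), was at 0.15 ± 0.19 and xpo-7 at 0.06 ± 0.38. As a set, the 11 genes of Ran, importins and exportins had 0 higher and 1 lower by limma (2 on each side at an unadjusted p under 0.05), with a median of 0.15, while the 21 nucleoporin genes had 4 higher and 0 lower (6 and 1 at an unadjusted p under 0.05), with a median of 0.11. Of all genes tested, 11.4% were higher and 11.9% lower by limma, and 17.6% and 17.9% at an unadjusted p under 0.05. Neither class was tested against these shares. The difference between the nucleoporin genes and the genes of Ran, importins and exportins was not tested.

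**Figure D2:**
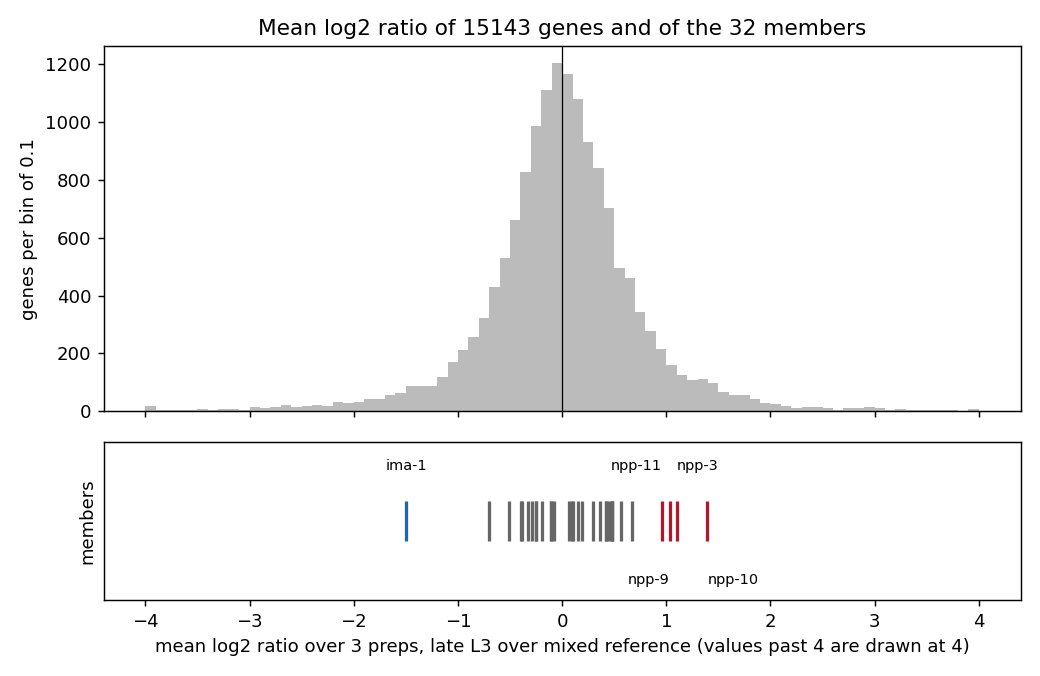
Upper panel, number of genes per bin of 0.1 in the mean log2 ratio over 3 preps for all 15143 genes tested. Lower panel, the 32 members on the same axis, red where higher, blue where lower and grey where not passed. The members lie within -1.49 to 1.39, inside the range of -5.63 to 5.53 over all genes.

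The members lay about the array median, with an interquartile range of means near that of all genes tested. Their SD on each array was smaller, at 0.70, 0.63 and 0.62 in preps 1, 2 and 3, against 0.89, 0.98 and 0.72. Means of 23 of the 32 (71.9%) were within 0.5 of the array median, against 62.7% of all genes tested, and 4 (12.5%) were at least 2-fold away, against 13.9%. Members ran from -1.49 to 1.39, and their interquartile range was 0.73, the same to 2 decimals as over all genes. For 21 of the 27 genes that did not pass, the 95% interval lay within 2-fold in both directions. For the other 6 (npp-12, npp-16, npp-19, npp-26, ran-1 and ran-5) it reached past 2-fold on one side, so a 2-fold difference in that direction lay within the interval.

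The sign was the same on all arrays for 19 members (59.4%), 12 above and 7 below, against 55.9% of all genes. The median SD over preps was 0.30 for members and 0.34 for all genes. Pearson's r over the 32 members was 0.65 between preps 1 and 2, 0.75 between preps 1 and 3 and 0.68 between preps 2 and 3. Over all genes it was 0.71, 0.72 and 0.78. These correlations are across genes, which share the arrays and the reference and are not independent replicates. Prep 1 was the lowest of the preps for 17 of the 32 members (53.1%), against 34.1% of all genes, and prep 3 for 5 (15.6%), against 32.1%. Over members the median was 0.03 in prep 1, 0.09 in prep 2 and 0.23 in prep 3. The arrays themselves differed in spread. Over all probes the scaled median absolute deviation, a measure of spread, was 0.69, 0.77 and 0.39 in preps 1, 2 and 3. The main test did not rescale them, so differences between preps and SDs over preps partly carry this inequality. Of the members, npp-16 and npp-26 were more than 1 log2 unit higher in prep 2 than in either of the others, that is 2 (6.25%), while 3.24% of all genes were.

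**Figure D3:**
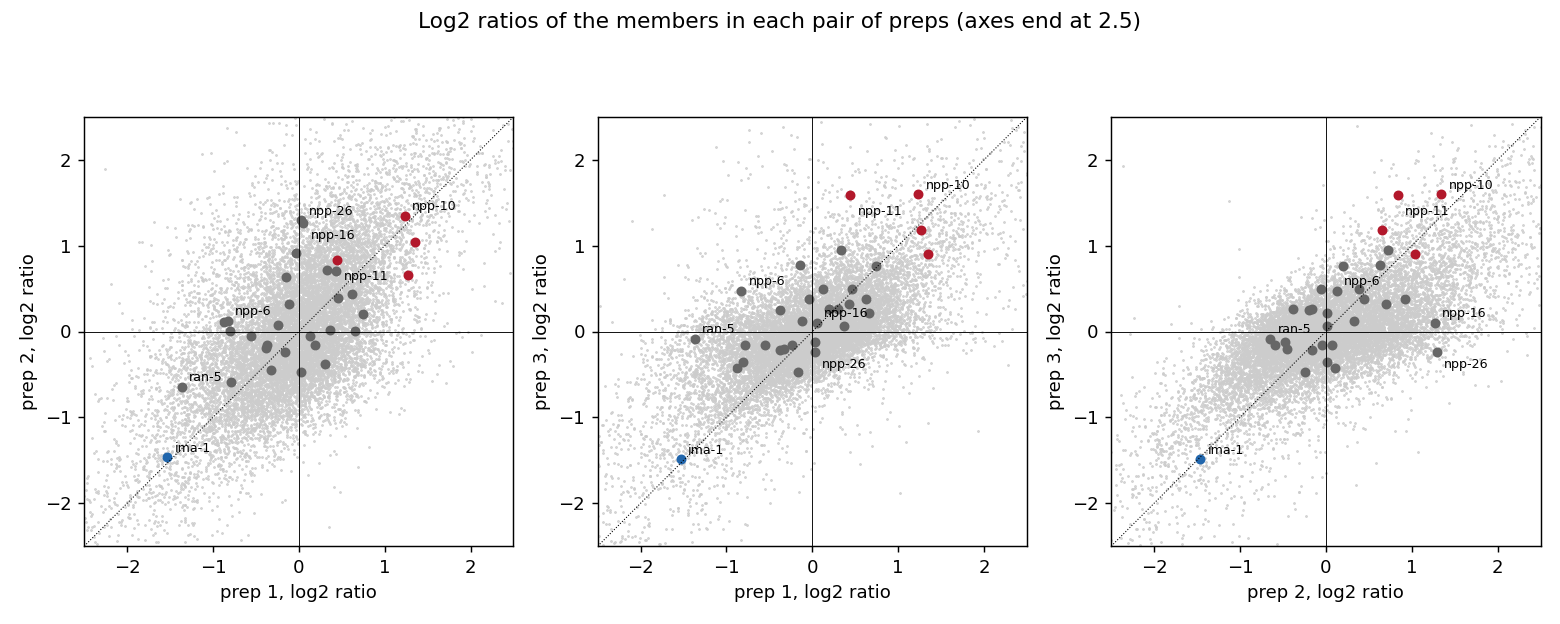
Log2 ratios of each pair of preps, with all genes tested in pale grey and the 32 members as larger points, red where higher, blue where lower and dark grey where not passed. The dotted line marks equal values. Among the labelled genes, npp-16 and npp-26 stand high in prep 2 only, at 1.27 and 1.29, and ima-1 lies on the line in every panel.

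Other genes of the same machinery were counted from fixed lists. Beside these counts, 11.4% of all genes tested were higher and 11.9% lower by limma, and 35.6% had an unadjusted p under 0.05. The Y complex partner mel-28, the counterpart of ELYS that seeds pores on chromatin, was at 0.16, 0.23 and 0.69 in preps 1, 2 and 3, with a mean of 0.36 ± 0.29 that did not pass (limma adjusted p = 0.272). Of 15 measured nuclear envelope and lamina genes, 1 was higher and 0 lower, with a median of -0.04. It was cnep-1, a phosphatase gene of the envelope, at 0.76 ± 0.43 (limma adjusted p = 0.0405). Of 13 mRNA export genes, 0 were higher and 1 lower, with a median of 0.05. This was thoc-3, of the THO complex that couples transcription to export, at -0.77 ± 0.37 (limma adjusted p = 0.0335). Of 8 genes of the SUMO pathway, which modifies the Ran activating protein at the pore in vertebrates, 0 passed in limma and 1 had an unadjusted p under 0.05, with a median of 0.15. The furthest from 0 were the SUMO protease gene ulp-1 at -0.69 ± 0.38 and the SUMO ligase gene gei-17 at -0.46 ± 0.48.

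Since pores are found in every nucleated cell, markers of cells that differ between larvae and a mixed reference were measured beside them. In such bulk RNA, fewer cells of a type and less RNA per cell cannot be told apart. The shares over all genes tested, to set beside the counts, were 11.4% higher and 11.9% lower by limma. Oocyte and eggshell markers had 11 lower and 0 higher of 13, with list medians of -2.63, -2.82 and -2.76 in preps 1, 2 and 3. Germ line genes had 5 higher and 4 lower of 18, with medians of -0.05, 0.17 and -0.10. Spermatogenesis genes had 6 lower and 0 higher of 12 (medians -0.47, -0.62 and -0.37) and embryo genes 2 lower and 0 higher of 8 (medians 0.11, -0.27 and 0.06). Of 7 male genes, 0 passed in limma and 0 had an unadjusted p under 0.05. The gene ima-1 was lower, as were the 11 oocyte and eggshell markers, 6 of the 12 spermatogenesis genes and 4 of the 18 germ line genes. The 4 nucleoporin genes that passed were higher, as were 5 of the 18 germ line genes. The part of cell makeup in these ratios was not tested.

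**Figure D4:**
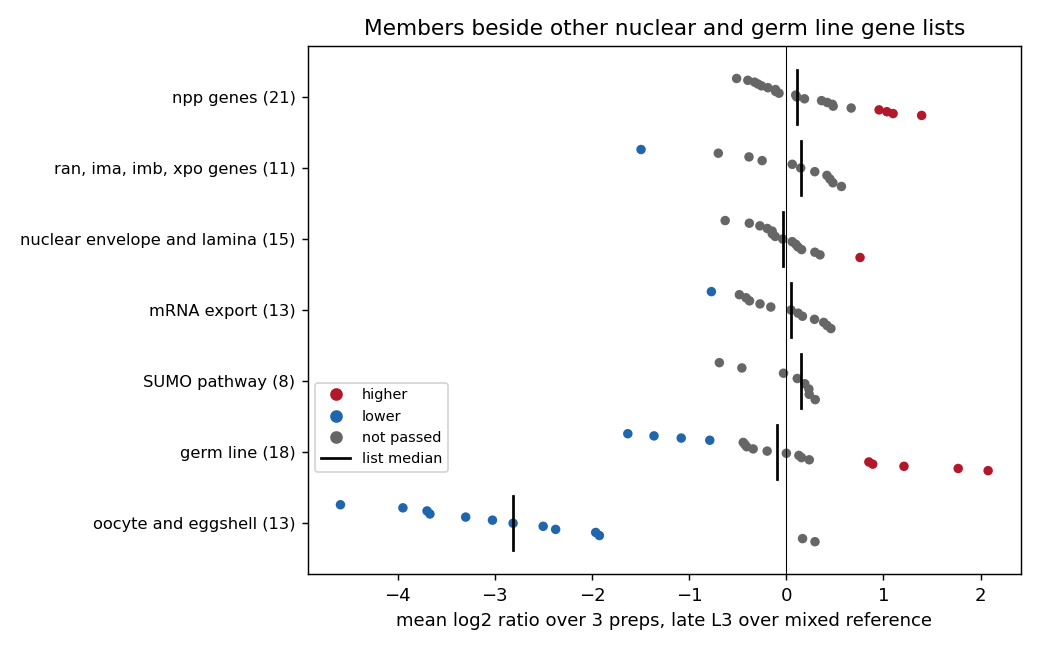
Mean log2 ratio over 3 preps of each gene (points) in the members, split into nucleoporin genes and transport factors, and in 5 other lists, with the number of genes in brackets. Points are red where higher, blue where lower and grey where not passed, and black bars are list medians. The medians of the nuclear lists lie between -0.04 and 0.15, and that of the oocyte and eggshell genes at -2.81.

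By position, the 32 tested members lay on the autosomes: 9 on chromosome I, 8 on II, 7 on III, 5 on IV, 3 on V and 0 on X. Of all genes tested, 2265 lay on chromosome X and 3889 on chromosome V. Member medians on chromosomes I, II, III, IV and V were 0.11, 0.26, 0.48, -0.11 and 0.06, beside -0.07, 0.0015, 0.02, -0.01 and -8.1e-05 for all tested genes there.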

How the data were processed

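The deposited values are log2 ratios of the 2 channels of each array, taken from the series' value table. Base 2 was settled from the values themselves, because on each array 100% of the ratios under 0.3 came out in whole thousandths (to 0.01 of a thousandth) when 2 was raised to the value. How the authors normalized and filtered spots, and which channel is the numerator, is not stated in any label or header. Spot intensities were not used here, and dye bias was not examined. The table held 20000 probes, with 19855 to 19909 values per array. A probe table gave 1 gene to 15655 probes, several to 198 and none to 4147. Symbols were brought up to date with RefSeq's WBcel235 gene table through gene IDs (15569 probes) or accessions (7 probes), and 79 probes kept an older name. Coordinates were left out, as no label names the probes' build.

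Arrays were centred on the median of their probes, and a gene's probes were averaged. The 15143 genes measured on all arrays were tested against 0, 2-sided, with limma (version 3.58.1, R 4.3.3; an intercept model with eBayes), which leaves out the reference's own spread. P-values were adjusted over these genes by Benjamini-Hochberg. The shared prior had an SD of 0.397 with 7.93 degrees of freedom. Precision is limited by the number of arrays, and errors are SD over preps. The fit was also run on simulated data, with the spread drawn from its own fitted prior. Such a run checks the code and cannot show how well the model suits these arrays. Members and lists were chosen with earlier results of these data known. All members are accounted for, with values in each prep for those past the threshold, at either end or with the largest SD. From the pathway lists, up to 4 genes past the threshold are named or, where none passed, the 2 furthest from 0, and cell type markers are given as counts and medians. Alternatives covered centring, scaling, quantile normalization, probe handling, missing values, shared spread, array weights, thresholds, gene names, sign, an identifier trend and each prep left out. Summaries and figures used Python 3.11.15 and matplotlib 3.10.9.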

Additional observations from a re-analysis of the deposited data

How the results depend on the processing

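The higher count of 4 and lower count of 1 stayed within 1.5 times under centring, scaling, quantile normalization, probe, naming, missing-value, robust and weighted alternatives, after the identifier trend was removed and at a threshold of 0.01. The counts over all genes moved too, from 890 higher and 1001 lower at a threshold of 0.01 to 2073 and 2099 with quantile normalization. At a threshold of 0.10, 6 of 32 members were higher (npp-12 and ran-1 besides the 4) and 2 lower (ran-5 besides ima-1). Of all 15143 genes tested, 2332 were higher and 2368 lower at that threshold. With no spread shared between genes, 0 members were higher and 0 lower, and so were 0 and 0 of all 15143 genes tested. As that setting called no gene at all, its counts say nothing particular about the members. There 7 members had an unadjusted p under 0.05, against 11 with limma. With the sign turned, 1 was higher and 4 lower, the median was -0.13, and npp-10, npp-3, npp-9, npp-11 and ima-1 were at -1.39, -1.10, -1.04, -0.96 and 1.49. Leaving out each prep in turn gave 3 to 5 higher, 1 to 2 lower and medians of 0.07 to 0.12. Calls of npp-10, npp-3, npp-9 and ima-1 held in all 13 alternatives of processing and prep at the threshold of 0.05, apart from the test with no shared spread (adjusted p from 0.130 to 0.204 there). The call of npp-11 also ended with arrays scaled to a common spread (0.0695) and with the identifier trend removed (0.0953). At the threshold of 0.05, npp-21 passed only after that trend was removed (0.0255) and ran-1 only with array weights (0.0496). Without prep 2, 761 genes were higher and 1002 lower, against 1720 and 1804 with all preps. No paired analysis was possible because all samples belong to 1 group.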

Other observations

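Genes next to the members in the RefSeq gene order were looked at after the members' values were seen. The 4 higher members had 8 neighbours with values, of which 2 were higher and 1 lower. So 37.5% of these 8 were called, against 23.3% of all genes tested. Both higher neighbours flank npp-10. These were the splicing factor gene eftu-2 at 1.31 ± 0.22 (limma adjusted p = 0.00169) and cyk-3, a deubiquitinase gene, at 0.76 ± 0.29 (limma adjusted p = 0.0298). Both neighbours of ima-1 were lower, dvc-1 at -1.92 ± 0.26 and pgap-1 at -0.94 ± 0.13 (limma adjusted p = 0.000200 and 0.00904). The collagen gene col-84 next to npp-3 was lower at -3.41 ± 0.44, on the other side of the median from npp-3 itself. Among 49 neighbours of the 27 members that did not pass, 6 were higher and 9 lower, so 30.6% were called, against 23.3% of all genes tested. The members npp-15 and ran-2 are neighbours on chromosome III, and their means were 0.48 and -0.25.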
